A study of Drosophila melanogaster with 3 samples.

Results

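The regions described here are the intergenic binding peaks of Ets21C that lay away from promoters in whole white prepupae of Drosophila melanogaster. From the authors' optimal list of 4505 peaks, those were kept whose summit fell on a main nuclear chromosome arm, over 500 bp from every annotated transcription start site (TSS) and inside no annotated protein-coding or noncoding RNA gene. They numbered 758 of the 4482 optimal peaks on the main arms (16.9%, exact 95% interval 15.8 to 18.0%). Binding was measured by chromatin immunoprecipitation with sequencing in 3 biological replicates of 1 group. The flies were a transgenic line, strain d.ets6-GFP, that stably carried a fusion of Ets21C to green fluorescent protein (GFP) at its C terminus. The precipitation used an antibody against GFP, and the chromatin came from whole animals of both sexes pooled at the white prepupa stage, with the age given as unknown. A tagged transgene reports the tagged protein only. Whole animals mix all tissues, and a site bound in few cells cannot be told apart from a site bound weakly in many. No control library was analysed here. The lists hold no reads, so sequencing depth is unknown, and peak height is given as the authors' deposited signal.

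Ets21C belongs to the ETS family of transcription factors, whose DNA-binding domain recognises sequences around a GGAA core. In the fly it is known as a stress-inducible factor that acts with AP-1, the dimer of Fos (kay) and Jun (Jra), downstream of JNK signalling. Intergenic binding away from promoters is where distal enhancers are often found, and white prepupae stand at the onset of metamorphosis, when a pulse of the steroid hormone ecdysone starts the remodelling of larval tissues.

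The sequences printed here hold summits that the results turn on, and were read from the RefSeq sequence of the Release 6 assembly (dm6), forward strand. The first 3 are 101 bases centred on 3 of the 4 highest summits. They lie between COX7AL2 and CG31668 (2L:2202369-2202469), between CG43245 and CG12523 (3L:10776520-10776620), and upstream of kay (3R:29763310-29763410). Capitals mark a GATA-type word in the first, one of the 5 leading 7-letter words described below in the second, and the AP-1 word TGAGTCA in the kay sequence.
COX7AL2 and CG31668: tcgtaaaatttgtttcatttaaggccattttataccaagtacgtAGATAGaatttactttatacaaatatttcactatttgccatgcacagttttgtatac
CG43245 and CG12523: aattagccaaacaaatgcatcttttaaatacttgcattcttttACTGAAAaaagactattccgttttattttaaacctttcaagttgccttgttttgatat
kay upstream: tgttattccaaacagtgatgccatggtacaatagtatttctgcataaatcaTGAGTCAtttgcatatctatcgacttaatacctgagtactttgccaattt
The next 5 are 201 bases centred on summits that had the leading 7-letter word CAGTGCA, in capitals on either strand with any other of the 5 leading words. They lie between CG7320 and CheA75a (3L:18235938-18236138), upstream of hid (3L:18195097-18195297), between E(spl)mbeta-HLH and E(spl)malpha-BFM (3R:26008987-26009187), between hng3 and CG13898 (3L:762432-762632), and between NijA and CG43245 (3L:10739940-10740140).
CG7320 and CheA75a: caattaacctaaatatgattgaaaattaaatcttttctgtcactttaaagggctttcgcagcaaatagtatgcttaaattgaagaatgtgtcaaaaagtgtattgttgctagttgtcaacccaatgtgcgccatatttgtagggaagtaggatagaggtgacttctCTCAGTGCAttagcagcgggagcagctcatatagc
hid upstream: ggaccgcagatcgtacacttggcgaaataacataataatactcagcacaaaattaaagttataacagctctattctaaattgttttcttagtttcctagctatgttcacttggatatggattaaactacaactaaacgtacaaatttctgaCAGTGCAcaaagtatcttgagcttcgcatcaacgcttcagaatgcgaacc
E(spl)mbeta-HLH and E(spl)malpha-BFM: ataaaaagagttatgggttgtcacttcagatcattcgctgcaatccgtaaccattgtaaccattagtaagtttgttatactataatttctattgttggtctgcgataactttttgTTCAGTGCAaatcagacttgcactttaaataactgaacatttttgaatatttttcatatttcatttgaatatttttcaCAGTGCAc
hng3 and CG13898: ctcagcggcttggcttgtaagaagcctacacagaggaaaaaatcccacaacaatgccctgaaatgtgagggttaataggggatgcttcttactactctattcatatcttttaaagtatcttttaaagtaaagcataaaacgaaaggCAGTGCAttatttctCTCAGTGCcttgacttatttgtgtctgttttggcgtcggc
NijA and CG43245: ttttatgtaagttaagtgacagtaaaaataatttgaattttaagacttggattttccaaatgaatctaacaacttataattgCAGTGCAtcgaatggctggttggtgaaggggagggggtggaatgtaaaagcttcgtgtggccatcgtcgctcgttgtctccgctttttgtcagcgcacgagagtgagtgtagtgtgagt

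Replicate 1 stood apart from the others. For each replicate, the 4505 peaks with the greatest signal, matching the optimal list in number, made up its top list. The top list of replicate 1 held 24.3% intergenic summits, against 16.2 and 14.2% in replicates 2 and 3 (18.2 ± 5.34%, SD, n = 3). It also held only 49.6% of the optimal promoter peaks, where the others held 81.6 and 81.8%. Of the intergenic members, 82.3, 80.5 and 76.3% were in the top lists of replicates 1, 2 and 3, counting summits within 100 bp as shared. All 3 top lists held 420 members (55.4%, exact 95% interval 51.8 to 59.0%), 222 were in 2 top lists, 108 in 1 and 8 in none. For promoter peaks the share in all 3 was 38.2% and for intronic peaks 49.1%. Since the optimal list itself derives from the replicate lists, these shares are not independent of it.

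GC content was lower at most summits than beside them. Across the 758 members GC content within 50 bp of the summit was 32.0 ± 7.06% (SD over members), against 43.8% in equally long windows 500 bp to either side, and the summit was the lower in 663 members (87.5%). Those flanks lay on a GC-rich shoulder. Mean GC content was 46.8% at 300 bp on either side, and 42.0 and 41.5% at 1000 bp to the left and right. Of the printed summits, that between NijA and CG43245 (45.5%, flanks 43.1%) and that between CG7320 and CheA75a (39.6%, flanks 30.2%) were above their flanks, and that upstream of kay equalled them (33.7%). Other optimal peaks had a like level, with averages of 33.2% at promoter summits and 31.7% at intronic ones. Non-overlapping 201-bp tiles of all eligible sequence, meaning bases outside genes and over 500 bp from a TSS, averaged 40.8 ± 8.46%. Members averaged 34.5 ± 5.47% in windows of that length. In the replicates' own top lists, intergenic summits averaged 32.7, 31.5 and 32.9% GC (32.3 ± 0.774%, SD, n = 3). The difference from promoter summits was 0.436, -0.364 and -3.70 percentage points in replicates 1, 2 and 3, with a mean of -1.21 ± 2.20. It changed sign between replicates (exact two-sided sign-flip permutation test, p = 0.75, adjusted p = 0.75). The smallest raw p that 3 replicates allow is 0.25, so this test could not have set any difference apart from 0.

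All 7-letter words were then counted within 100 bp of the summits, reading both strands. The words were ranked by how far their share in members exceeded that in intergenic tiles of like GC content, those within the members' interquartile range of GC. This scan was chosen after seeing the data, and it picked its words from the members themselves, so the shares in members are a description with no test. The first 5 of 8129 words were CAGTGCA, then GCACTGA, then CACTGAG, then CACTGAA, then ACTGAAA. They overlap one another when both strands are read, so their counts are not independent. CAGTGCA was present in 121 members (16.0%, exact 95% interval 13.4 to 18.8%), against 3.89% of the windows 500 bp away and 3.27% of all intergenic tiles. Among members within the GC range it was in 17.1%, against 2.89% of tiles in that range. At least 1 of the 5 words was found in 241 members (31.8%) and in 11.9% of the flanking windows.

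The word was not restricted to high peaks or to 1 replicate. With members split by signal into groups of 189 or more, its share was 16.9% in the highest group and then 15.3, 16.4 and 15.2%. In the intergenic summits of the replicates' own top lists it was in 12.9, 15.7 and 15.3% (14.6 ± 1.51%, SD, n = 3), against 4.23, 3.58 and 3.62% of their flanking windows. Every summit share was above every flanking share. Of the members scanned, 82.3, 80.5 and 76.3% were in these top lists, so the replicate shares are not independent of the scan. In peaks that the scan had not used, CAGTGCA was in 11.8% of 1834 intronic summits, with 3.33% in their flanks, and in 7.53% of 6137 weaker intergenic peaks (those of the pooled list over 500 bp from any optimal summit), with 3.42% in theirs. Promoter summits had it in 115 of 1805 peaks, with 3.77% in their flanks.

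CAGTGCA did not sit at the summit but beside it. Within 1 kb of the 758 summits it occurred 36 times at under 50 bp from the summit, 105 times at 50 to 100 bp, 50 times at 100 to 150 bp and 185 times in the far wider span of 500 to 1000 bp. Per 1000 members and 100 bases this was 47.5, 139 and 66.0 occurrences in the 3 nearer rings and 24.4 in the farthest. Intronic peaks had the same order, with 31.6, 104 and 57.8 in the nearer rings and 18.9 in the farthest. GATA-type words had another and flatter profile in members, highest next to the summit at 268 per 1000 members and 100 bases, and 218 at 50 to 100 bp. Farther out their rate was 162 at 150 to 500 bp and 197 at 500 to 1000 bp.

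The word also had a direction, which the scan, blind to strand, had not used. Of the 105 occurrences at 50 to 100 bp, 92 (87.6%, exact 95% interval 79.8 to 93.2%) read outward, with CAGTGCA running away from the summit on whichever side it lay, and 13 read inward. In replicates 1, 2 and 3 the outward share in that ring was 83.0, 88.9 and 89.9% of 94, 90 and 69 occurrences in their own intergenic summits. Intronic peaks had 157 outward and 33 inward (82.6%, 76.5 to 87.7%), and weaker intergenic peaks 204 and 75 (73.1%, 67.5 to 78.2%). Promoter peaks had 65 outward and 30 inward (68.4%, 58.1 to 77.6%). At 500 to 1000 bp from members' summits the counts were 103 outward and 82 inward (55.7%, 48.2 to 63.0%). Intervals cover counting error only, and neighbouring members can share a window. In the printed sequences the word read outward at 71 bp from the summit between CG7320 and CheA75a, at 54 bp upstream of hid and at 49 bp between hng3 and CG13898. Between E(spl)mbeta-HLH and E(spl)malpha-BFM both copies, at 20 and 96 bp on the same side, read outward, whereas the copy between NijA and CG43245 read inward.

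**Figure D1:**
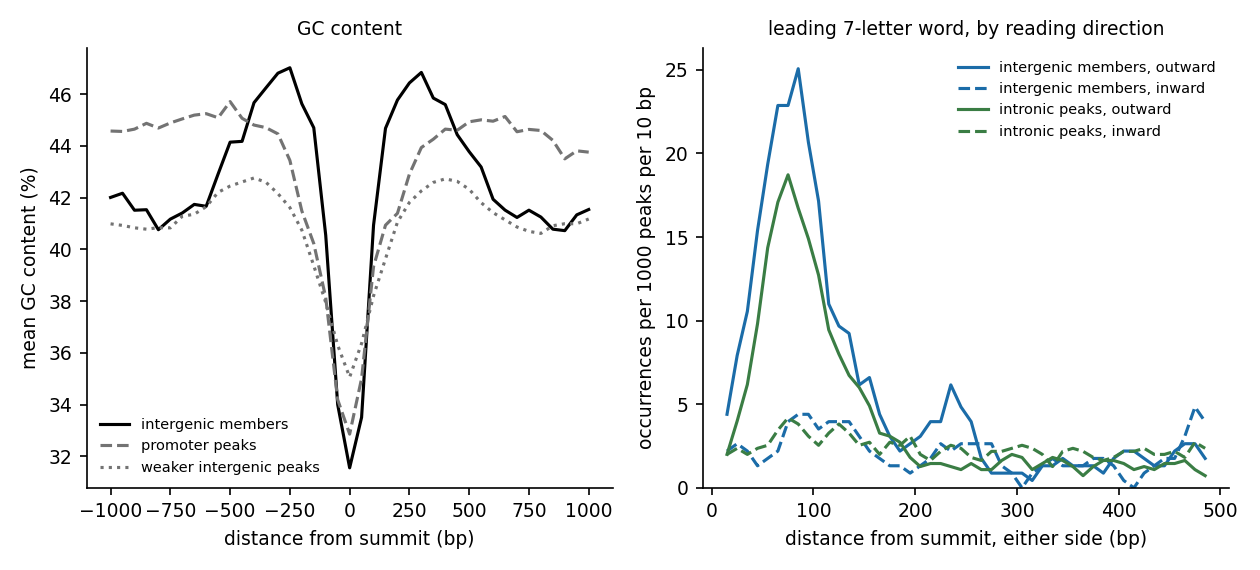
Left, mean GC content (%) in windows of 101 bp by distance from the summit for intergenic members, promoter peaks and weaker intergenic peaks. Right, occurrences of the leading 7-letter word per 1000 peaks and 10 bp (mean of 3 neighbouring bins) by distance from the summit, outward (solid) or inward (dashed), for the 758 intergenic members and 1834 intronic peaks. The outward lines are highest between 50 and 100 bp, and the inward lines stay low.

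The base before CAGTGCA was T in 44.8% of 125 occurrences near members' summits with enough sequence on both sides, against 20.3% of 64 in the flanks, and T stood 3 places before it in 71.2%, against 35.9%. The letters TCAGT are known in the fly as the core of the initiator, the element at the start site of many promoters. Counted wherever they stood, they occurred outward 157 times and inward 78 times at 50 to 100 bp from members' summits (66.8% outward, exact 95% interval 60.4 to 72.8%). Occurrences inside TCAGTGCA were not removed, so this count is not independent of the leading word. In the replicates' own intergenic summits the outward share in that ring was 69.4, 69.2 and 64.6%. At 150 to 500 bp from members' summits it was 51.1%. Promoter peaks had a TCAGT outward share of 59.0% at 50 to 100 bp and 57.0% at 150 to 500 bp. For intronic peaks these shares were 69.2 and 51.2%, and for weaker intergenic peaks 55.8 and 51.4%. Whether transcription starts at these words was not measured.

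Words of known factors were counted in the same windows. Their shares cannot be ranked against that of CAGTGCA, which the scan chose for its excess in members. The 8-letter ETS words, CCGGAAGC or CCGGAAGT, were within 100 bp of 4 members (0.528%, exact 95% interval 0.144 to 1.35%), against 0.198% of the flanking windows and 0.629% of tiles. These 4 members lay between dpr17 and CG4702, CG7985 and CG14314, CG30089 and Zasp52, and jp and brwl. The GGAA core was in 74.7% of members, 77.7% of flanking windows and 80.3% of tiles, so it was no more frequent at the summits. The AP-1 words TGACTCA or TGAGTCA were in 10 members (1.32%), against 1.52% of flanking windows. One of those 10 was the highest peak upstream of kay, which encodes the Fos subunit of AP-1. GATA-type words, of the kind GATA factors bind (AGATAA and TGATAA, and also AGATAG and TGATAG), were in 292 members (38.5%) against 26.3% of flanking windows. In the replicates the GATA difference between summits and flanks was 13.5, 12.04 and 12.8 percentage points (12.8 ± 0.722, exact sign-flip permutation p = 0.25, adjusted p = 0.3125, the smallest raw p that 3 replicates allow being 0.25). Among members and tiles of like GC content the shares were 41.2 and 38.3%, against 38.5 and 30.5% for all members and all tiles. No match says only that these letters are not in the window.

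Members were somewhat lower than other optimal peaks. Their median signal was 177 (range 109 to 2492), against 207 for promoter peaks and 185 for intronic ones, and 53 of the 500 highest optimal peaks (10.6%) were members. Within the replicates, each height was divided by the median signal of the replicate's top list. The median relative height of intergenic less promoter summits was -0.400, -0.180 and -0.0197 in replicates 1, 2 and 3. The mean difference over the 3 replicates was -0.200 ± 0.191 (SD, n = 3; exact sign-flip permutation p = 0.25, adjusted p = 0.3125). Without replicate 1 it was -0.100, a value with no test. Against intronic summits it was -0.0968, -0.0760 and -0.0654, with a mean of -0.0794 ± 0.0160 and the same exact permutation p. That mean shrank to -0.0423 with top lists of 2000 peaks and to -0.0373 with 10000. Both differences had the same sign in all 3 replicates, but 3 replicates cannot pass a threshold of 0.05.

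The highest members stood far above this median in every replicate. The peak between Su(z)2 and CG13323 had a signal of 2492 and relative heights of 14.4, 10.6 and 13.6, and its summit was 9361 bp from CG13323. Su(z)2, which lay farther from that summit than CG13323, is a Polycomb-group gene. The summit between COX7AL2 and CG31668 (2L:2202191-2202610, signal 2118) reached 14.1, 9.61 and 10.4, and a second peak in that gap reached 7.92, 5.54 and 5.57. The third highest, between CG43245 and CG12523 (signal 1711), reached 12.9, 7.35 and 8.01. Among the 20 highest members, the leading peaks of these 3 gaps were also the top 3 in each replicate, with the lowest height in replicate 2. The peak 2635 bp upstream of kay (3R:29763175-29763526, signal 1198) reached 7.29, 5.80 and 6.04. It was flanked by weaker members, 3490 and 2002 bp from kay, with signals of 196 and 162.

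The other high members lay beside genes of varied roles. The peak 579 bp upstream of ds, which encodes a large cadherin of planar polarity and Hippo signalling, had a signal of 968 and heights of 5.21, 4.25 and 5.37. Beside fj, whose Golgi kinase acts on the ds and ft cadherins, the peak had a signal of 822 and heights of 5.55, 3.53 and 4.10, but its summit lay 33573 bp from fj and nearer to Ote. At sty, which encodes Sprouty, an inhibitor of receptor tyrosine kinase signalling, the highest peak (signal 866) reached 6.98, 3.68 and 4.24 and lay 6126 bp downstream of the gene. That summit was nearer to a noncoding RNA gene than to sty. The peak 9556 bp upstream of the cell-death gene hid (signal 752) reached 4.41, 3.00 and 4.08, and a noncoding RNA gene lay 975 bp away on its other side. The gap between lola and psq, which both encode BTB-domain transcription factors, held one of 741. All 20 of the highest members were in every replicate's top list.

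**Figure D2:**
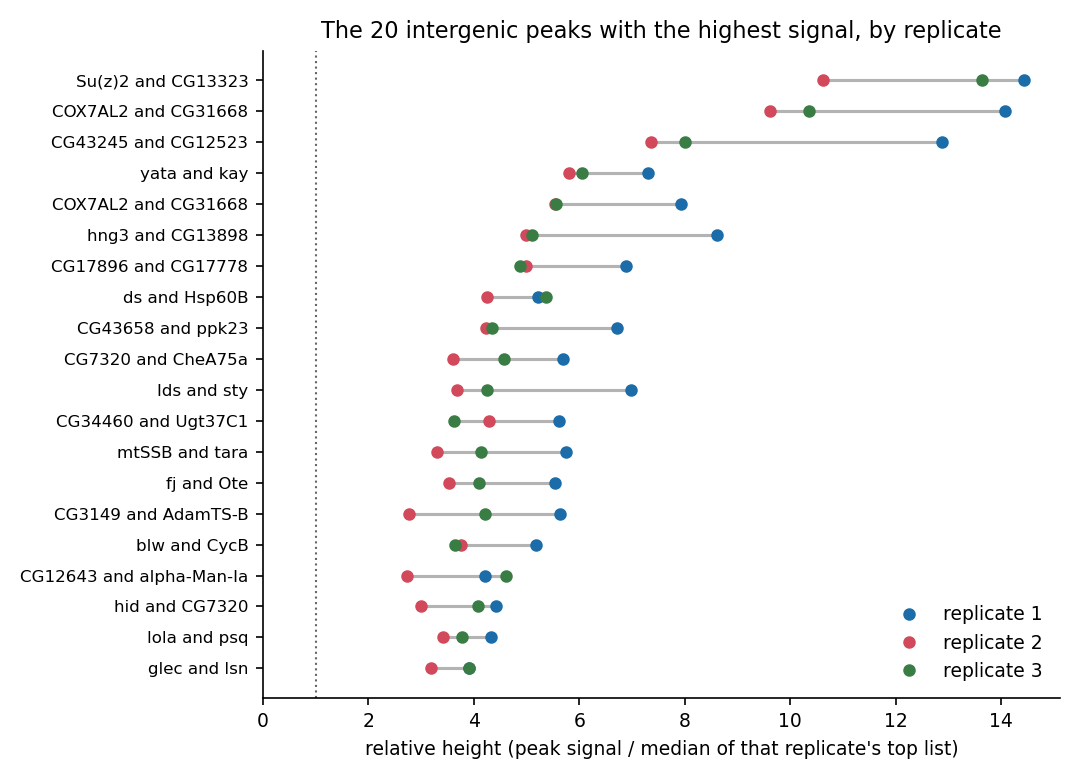
Relative height (deposited signal over the top-list median of the same replicate) of the 20 intergenic peaks with the highest signal, named by the nearest coding gene on each side, with 1 point per replicate and a line from the lowest to the highest. All points lie above 1 (dotted line), and 3 peaks stand clear of the rest in each replicate.

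The summits lay closer to start sites than eligible bases as a whole. Their median distance to the nearest annotated TSS was 3336 bp (quartiles 1440 and 6407, farthest 31885), against 6095 bp for all eligible bases and 3929 bp for the weaker intergenic peaks. Eligible bases made up 36.7 Mb (27.4% of the arms), so members numbered 20.6 per Mb. Gaps over 50 kb held 26.8% of those bases but 27 members (3.56%). Whether peaks could be called equally well in all eligible sequence was not tested. At 500 to 1000 bp from a TSS there were 40.3 members per Mb and at 1 to 2 kb 34.6. The density was 25.04 at 2 to 5 kb and 26.7 at 5 to 10 kb, so the fall was not steady. At 10 to 20 kb it was 12.2 and over 20 kb 1.78. In each replicate's own top list the density also fell from the nearest to the farthest bin, from 51.7 to 4.62, from 41.7 to 1.78 and from 36.7 to 1.54 per Mb. Annotated transposons, which rose from 3.73% of bases in the nearest bin to 16.4% in the farthest, held 1 member, and without their bases the densities at the ends were 41.5 and 2.12 per Mb.

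The 500 bp limit cuts through a continuous range of distances. Just outside it lay optimal summits 490 bp from a TSS of zormin and of Sqor and 496 bp from one of CrebA, with signals of 173, 166 and 214. Just inside it were members 501 bp from CG15172, 506 bp from CG17896 and 508 bp from CG43401, with signals of 249, 1050 and 222. The nearest TSS belonged to a coding gene for 482 members (63.6%), to a noncoding RNA gene for 254 (33.5%), to a tRNA gene for 21 and to a snoRNA gene for 1. For coding genes alone the median distance was 5357 bp.

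Summits were more often upstream of the nearest TSS than downstream. This was so for 497 members (65.6%), against 57.9% of eligible bases, and for 63.0, 66.4 and 63.6% of intergenic summits in the 3 replicates (64.4 ± 1.83%, SD, n = 3). Gaps between divergent genes, where both neighbours are transcribed away from the gap, held 211 members at 28.9 per Mb. Tandem gaps held 378 at 20.5 per Mb and convergent gaps 169 at 17.8 per Mb. The density in divergent less convergent gaps was 13.9, 12.3 and 7.69 per Mb in replicates 1, 2 and 3 (11.3 ± 3.21, exact sign-flip permutation p = 0.25, adjusted p = 0.3125). Divergent gaps were the denser in all 3 replicates, and also in the optimal list within gaps of at most 50 kb, with 31.1 against 24.5 per Mb.

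**Figure D3:**
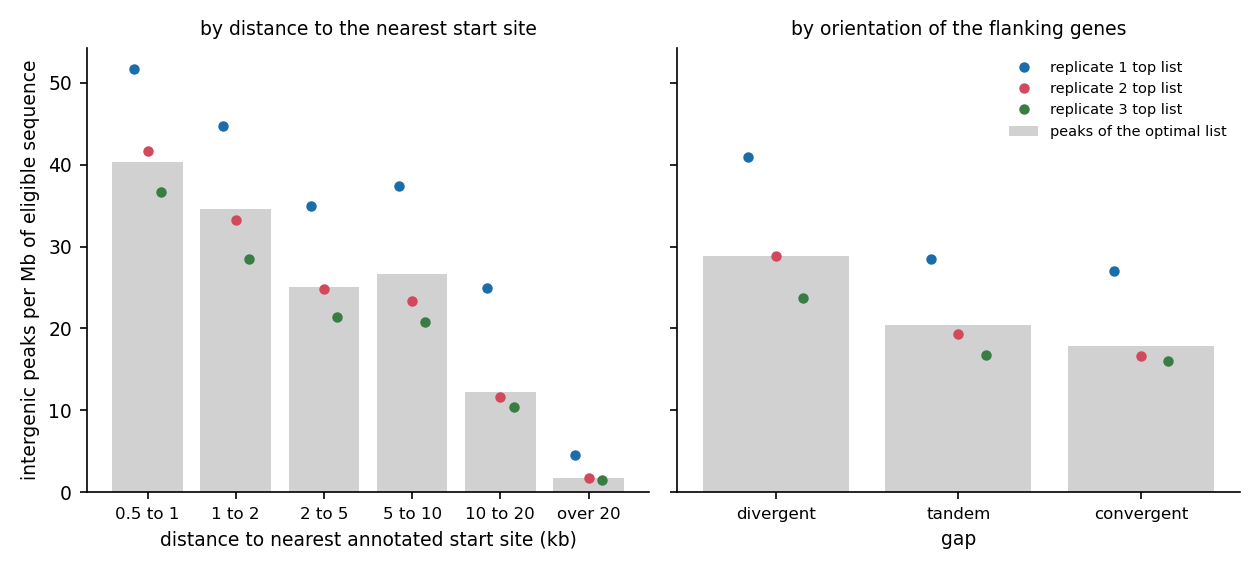
Intergenic peaks per Mb of eligible sequence by distance to the nearest annotated start site (left, kb) and by the orientation of the flanking genes (right). Bars are the optimal list and points are the intergenic summits of each replicate's own top list. In every series the first bin is the highest and the density over 20 kb is the lowest, and divergent gaps are above convergent ones.

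Members were spread unevenly over the arms. Arm 3L held 249 members at 27.3 per Mb, 2L 161 at 23.8 and 3R 172 at 22.3. Arm 2R held 104 at 13.9 per Mb, X 70 at 13.0 and chromosome 4 only 2, at 7.41 per Mb. On X members made up 7.80% of the arm's optimal peaks, against 25.8% on 3L. In the replicates' own lists the density was 35.3, 27.2 and 21.8 per Mb on 3L (28.1 ± 6.78) and 18.2, 10.2 and 12.5 on X (13.6 ± 4.13), so 3L was above X in each replicate and the groups of 3 values did not overlap. On 2L the values were 36.5, 22.3 and 20.2, which overlapped those of 3L. The sexes were pooled, so the number of X chromosomes per cell was mixed.

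Of 6492 gaps with eligible sequence, 477 held a member (7.35%). In 332 of them there was 1 member, and the other 145 shared 426 members, so neighbouring members are not independent. Another optimal summit lay within 2 kb of 295 of the 758 members (38.9%), against 31.5% of promoter peaks and 39.9% of intronic ones.

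The most members lay around hng3 and CG13898 on 3L, each of which was a coding neighbour of 24 members. Within hng3 lies emc, which encodes an inhibitor of basic helix-loop-helix factors. Of the 24 beside hng3, 10 lay between CG13898 and a pair of tRNA genes for isoleucine (signals 176 to 1118), 7 between hng3 and the same tRNA genes (116 to 647), and 7 on the other side of hng3 (148 to 627). On the far side of CG13898, towards Sf3b3, lay 7 more with signals of 119 to 261. The highest of all, 524 bp from CG13898, had heights of 8.61, 4.996 and 5.09. Another 9 members lay in 1 gap of 18664 bp between CG18404 and heca (headcase), with signals of 116 to 655. The highest there, 27 bp from a noncoding RNA gene, reached 3.63, 2.95 and 3.42. All but 2 of those 9 were in all 3 top lists.

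The gap of 75047 bp between NijA and CG43245 held 8 members and the 2 farthest from any gene. The farthest, 31885 bp from CG43245 and 43163 bp from NijA (3L:10739840-10740239), had a signal of 576 and heights of 3.17, 2.28 and 3.10. A neighbour 31156 bp from CG43245 was far lower, with heights of 0.870, 0.661 and 0.673. The next farthest lay 28000 bp from AOX4, 26663 bp from the nearest gene between B-H2 and B-H1, and 23967 bp from Tollo, with signals of 175, 151 and 169. B-H1 and B-H2 are paired homeobox genes. Each of these 5 was found in every replicate's top list.

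In all, 18 gaps held 5 or more members. The gap downstream of sty, 6545 bp long, held 5 members, all in the 3 top lists, and 4 more lay beyond the noncoding RNA gene at its edge. Upstream of hid were 5 members within 10 kb of the gene, with signals of 155 to 752. The gap upstream of Eip93F, an ecdysone-induced factor needed for metamorphosis, held 6 (118 to 472), and the peak 7498 bp upstream of it had heights of 3.56, 2.11 and 2.13. The gap between ems, a head-gap homeobox gene, and Art9 held 6 low ones (158 to 214), as did that between mab-21 and rux (143 to 269). Among the gaps with 5 members were also those between Dyro and CG7573 (118 to 430), CG6163 and CG11726 (147 to 263), CG17154 and vers (111.2 to 424), drm and CG43815 (139 to 207), and Pex7 and hry (162 to 552).

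**Figure D4:**
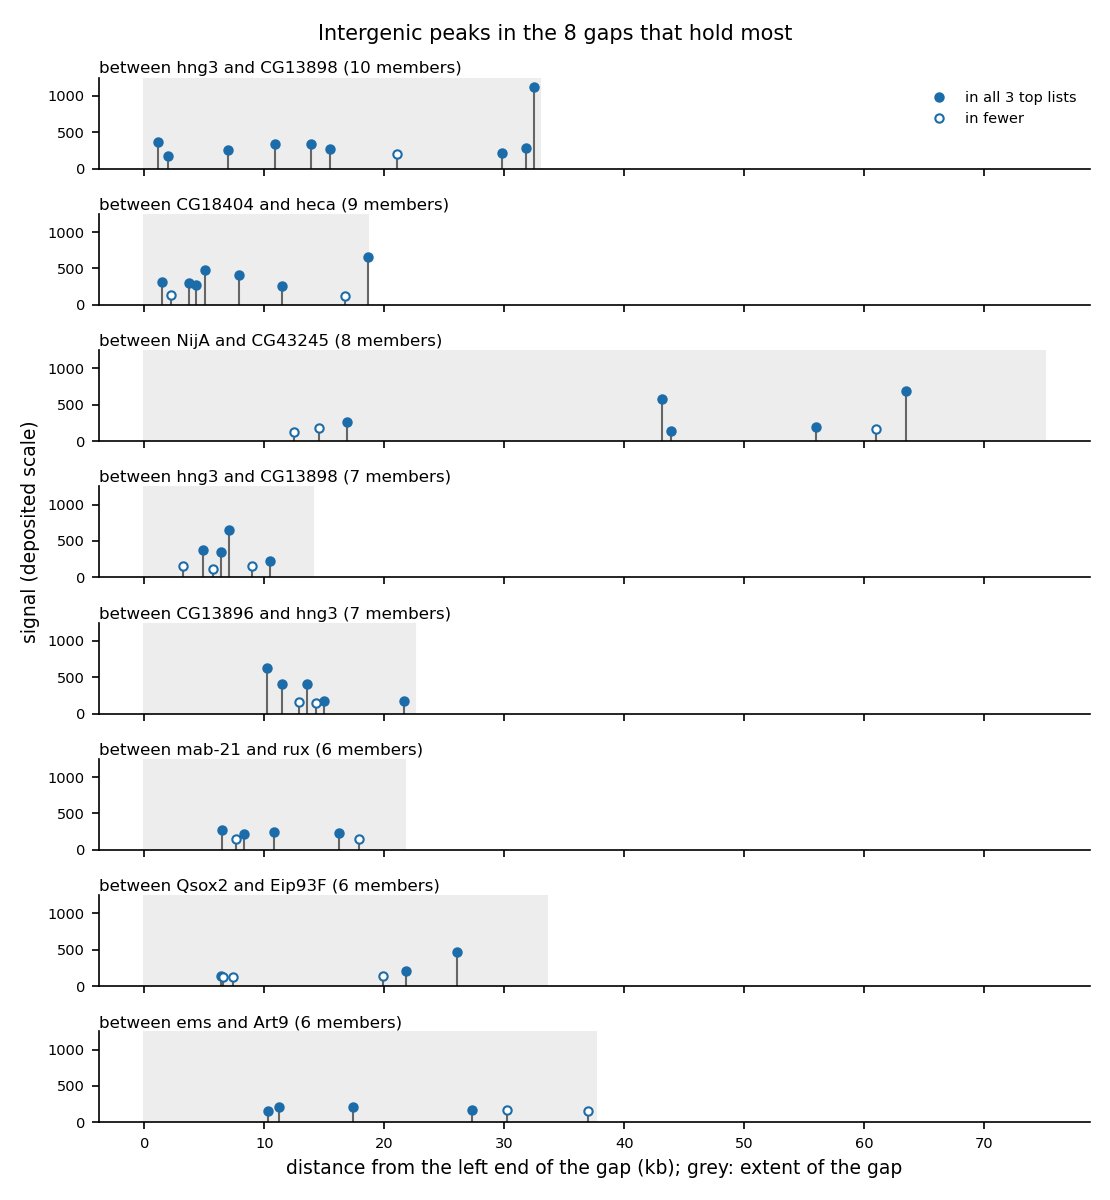
Signal (deposited scale) of each intergenic peak against its distance from the left end of the gap (kb) in the 8 gaps that held most members, with the extent of each gap in grey. Filled points were in every replicate's top list and open points in fewer. The members are spread along the gaps, and the highest point is at 1118.

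Of 7898 coding genes next to eligible sequence, 758 flanked a member (9.6%), a count that only happens to equal that of the members. In replicates 1, 2 and 3 the share was 13.2, 9.38 and 9.002% (10.5 ± 2.33%, SD, n = 3). It rose with the room beside a gene, from 1.70% of genes with up to 2 kb of eligible sequence to 31.8% of those with over 20 kb. Each list below is therefore set beside the share of all coding genes with as much eligible sequence, and no list was tested. The lists were chosen with earlier results of these data known, so a share above that of like genes is a description only. Some genes are in more than 1 list, among them hid, aop, fj and upd3. A peak between neighbouring genes of a list counts for each of them, as between salr and salm, inv and en, or upd1 and upd3. Flanking genes of a list are therefore not separate cases.

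Patterning and selector transcription factors were the list with the most flanking genes, 41 of 98 (41.8%), against 23.3% of all coding genes with as much eligible sequence. The replicates gave 46.9, 42.9 and 44.9% (44.9 ± 2.04%). The highest peaks beside them were at hry, a pair-rule repressor also called hairy, with heights of 3.27, 3.01 and 2.48 at 18850 bp upstream, and at drm, an odd-skipped relative, with 3.77, 2.03 and 2.63. Each of those genes had 9 members beside it. Beside Dr, a muscle-segment homeobox gene, the peak 1958 bp downstream reached 3.03, 2.03 and 1.94, and beside C15, a homeobox gene of the distal leg, it reached 1.89, 1.72 and 2.23. Antp, abd-A, en, Dll, salm and hth, which act in segment or appendage identity, each flanked at least 1 lower member.

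Signalling genes followed. Genes in the list of ligands and their secreted inhibitors flanked members in 14 of 40 cases (35.0%, against 18.6% at like span; replicates 47.5, 32.5 and 35.0%). The list was broader than its name, since it also held fj, nkd and fz3, and fj and nkd were among the 14. One peak between upd1 and upd3, cytokines of the JAK/STAT pathway, had heights of 3.28, 2.19 and 2.74, and one between Wnt6 and Wnt10 had 2.56, 2.04 and 1.90. Beside dpp, the BMP ligand, the highest reached 2.16, 1.32 and 1.42 at 27204 bp downstream, and wg and hh each had 3 members beside them. EGFR, Ras and MAPK genes flanked members in 7 of 22 cases (31.8%, against 10.6%), led by sty and by RasGAP1, which had a peak of 664 that was not found in replicate 1 and reached 3.19 and 3.44 in the other replicates. Hippo pathway genes did so in 7 of 17 cases (41.2%, against 9.55%), with ds, fj and ex highest. At ex, which encodes an upstream FERM-domain regulator, the peak 980 bp upstream reached 3.81, 2.98 and 3.18. For Hippo genes the replicates gave 35.3, 41.2 and 29.4%, and with so few genes 1 gene moves the share by several points.

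The ecdysone response and JNK signalling bear on the stage and on the factor. Of 30 ecdysone-response genes, 9 flanked a member (30.0%, against 11.02% at like span; replicates 36.7, 30.0 and 33.3%). They were hid, Eip93F, Blimp-1, Eip63E, ImpE2, ImpE1, rpr, Eip75B and Ldh. At Blimp-1, a zinc-finger repressor that times the prepupal programme, the peak 19061 bp upstream reached 2.07, 2.24 and 1.73. Of 28 JNK, AP-1 and stress bZIP genes, 7 flanked a member (25%, against 11.7%; replicates 32.1, 28.6 and 25%), led by kay. Upstream of Atf3, a bZIP factor, a peak at 1888 bp reached 2.62, 1.85 and 2.66 and stood beside a promoter peak with a signal of 475. Of the 7 ETS genes next to eligible sequence, aop alone flanked members (14.3%, against 7.35%; replicates 28.6, 28.6 and 14.3%), with heights of 1.21, 0.885 and 1.11 at the higher of 2. It encodes the ETS repressor Yan. Notch and E(spl) genes did so in 6 of 26 cases (23.1%, against 12.7%), with 4.09, 3.43 and 3.70 between E(spl)mbeta-HLH and E(spl)malpha-BFM and 4.30, 3.06 and 2.71 upstream of fng, a glycosyltransferase that modifies Notch.

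The other lists had shares near or below those of genes with like span, apart from muscle genes, where 2 genes decide the share. Cuticle protein genes flanked a member in 6 of 97 cases (6.19%, against 7.22%), cytosolic ribosomal protein genes in 2 of 52 (3.85%, against 8.06%), immune effectors in 1 of 22 (4.55%, against 5.66%), Osiris genes in 1 of 25 (4%, against 12.1%), muscle genes in 2 of 20 (10%, against 8.50%) and salivary glue genes in none of 11 (against 4.44%). In replicate 1's own list 1 of the 11 glue genes did. Chemosensory genes did so in 14 of 148 cases (9.46%, against 12.9%) and cytochrome P450 genes in 5 of 45 (11.1%, against 11.1%). Cell-surface wiring genes of the nervous system had large gaps, with a median of 14306 bp of eligible sequence, yet 3 of 51 flanked a member (5.88%, against 20.8%). In the replicates that share was 23.5, 5.88 and 3.92%, so replicate 1 differed from the others and the low count did not hold in it.

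**Figure D5:**
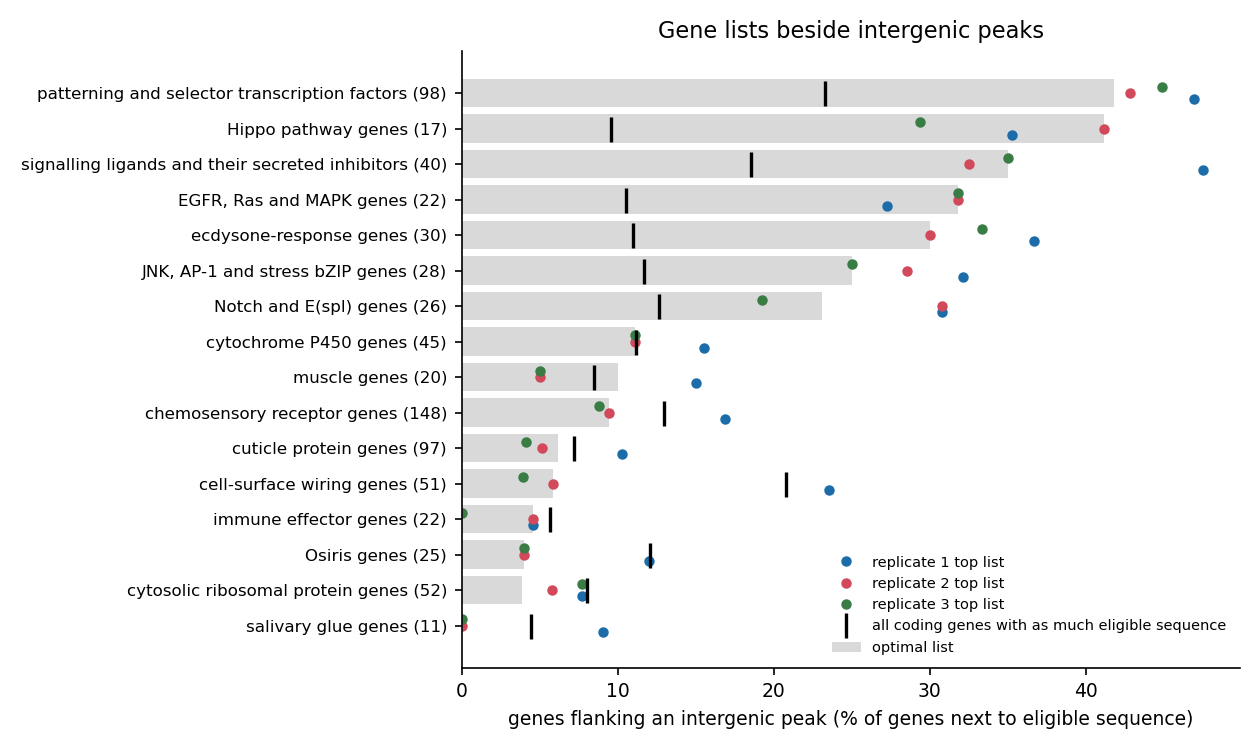
Share (%) of the genes in each list, among those next to eligible intergenic sequence (number in parentheses), that flanked an intergenic peak. Bars are the optimal list, points the replicates' own top lists and black ticks the share of all coding genes with as much eligible sequence. In the upper 7 lists, from the patterning factors to the Notch genes, the bar and all 3 points lie to the right of the tick. ETS family genes are not drawn.

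Distal and promoter binding met at some genes. Of the 758 flanking genes, 15.6% had an optimal promoter peak, against 13.7% of the other coding genes next to eligible sequence. By eligible span the shares were 18.7 against 16.7% up to 2 kb, the class of 4403 of the 7898 genes, 27.9 against 11.8% at 2 to 5 kb, 19.2 against 10.97% at 5 to 10 kb, 14.4 against 6.32% at 10 to 20 kb and 9.36 against 5.63% over 20 kb. Counted by peak, 206 members (27.2%) had such a gene on at least 1 side. At hid the promoter peak had a signal of 714, near the 752 of its highest intergenic peak. At kay the promoter peak had 119, far below the 1198 of the intergenic one upstream. At Eip75B and Ldh it was the other way, with promoter signals of 481 and 459 and intergenic ones of 176 and 164.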

How the data were processed

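Peak lists of 3 replicates, a pooled list and an optimal list were used, all deposited with a signal value per peak on each list's own scale. Per the notes the authors deposited, the optimal list was thresholded by irreproducible discovery rate from the pooled and the 3 replicate lists. The aligner and peak caller were not given in the sources used here. Both the lists and the Ensembl release 115 annotation (17896 genes, 23307 TSS positions) use Release 6 (dm6). Members, gene lists and words were chosen with earlier results of these data known. Named regions were the 20 highest, the 5 farthest from a gene, the 5 gaps with most members, the 5 on each side of the 500 bp limit, those with an ETS word, and up to 4 genes per list. Other gaps and genes named, the 7-letter scan, reading directions, transposon-free densities, and the GATA and orientation tests were chosen after seeing the data. A top list is a replicate's 4505 highest peaks. The only tests, 5 in all, were exact two-sided sign-flip permutations over 3 replicates with Benjamini-Hochberg adjustment, since peaks are not replicates. Exact intervals (Clopper-Pearson) cover counting error only. The computations used Python 3.11.15, pandas 2.3.3, numpy 2.4.6 and scipy 1.17.1, and the scripts were tested on simulated data. Of the listed symbols, let-7-C, sprouty, d and ban matched no gene and were not counted.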

Additional observations from a re-analysis of the deposited data

How the results depend on the processing

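With a start-site limit of 250 bp, members made up 19.99% of optimal summits at a median distance of 2379 bp, and with 1000 bp 14.4% at 4021 bp. Among the optimal peaks above the median signal there were 325 members (14.5%), 89.5% of them in all 3 top lists, beside 5.24% of coding genes and in 3.74% of gaps. When only optimal peaks in the top lists of both other replicates were kept, members numbered 480 to 517, their share was 16.6 to 21.0%, 81.2 to 87.5% of them were in all 3 top lists, and their median signal was 0.827 to 0.882 of that of all such peaks. The share in all 3 top lists was 42.6% within 50 bp and 86.3% in whole replicate lists. GC content within 100 bp was 34.5%. The GC difference from promoter summits was -2.03 to 0.0360 points with 1 replicate left out, changing sign without replicate 3. Against tiles in place of flanks, the difference in share reversed for the ETS (-0.102 points), DRE (-0.0502), STAT (-0.0595) and BEAF-32 (CGATA, -2.08) words, and the Zelda word reversed within 50 bp (0.0660). The cause was not tested. The intergenic less intronic height fell in size from -0.0794 to -0.0423 with top lists of 2000 peaks and -0.0373 with 10000, the intergenic less promoter height to -0.100 without replicate 1, and the GC difference from -1.21 to -0.376 points with 2000. These kept their sign but were not tested, and their main values did not pass a test. No paired analysis was possible because the samples form 1 group. Depth cannot be read from peak lists, so weakly bound intergenic sites may be missing from any replicate.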
